A study of Mus musculus with 2 samples.

Results

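The class 3 semaphorins are secreted ligands, and the neuropilins are the surface receptors that bind them. The 7 genes described here are the ligand genes Sema3a, Sema3c, Sema3d, Sema3e and Sema3f and the receptor genes Nrp1 and Nrp2. They were chosen by symbol, each has 1 row in each deposited matrix, and they are 7 of 27998 genes listed at embryonic day 12.0 (E12.0) and 7 of 31053 listed at E9.5. Their levels were followed across groups of cells within the mouse mandibular arch, each group set by the unique molecular identifiers (UMIs) of 1 or 2 other genes.

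Semaphorins of this class turn away or attract growing axons, migrating neural crest cells and endothelial cells. Most of them bind a neuropilin, which has a short cytoplasmic tail and passes the signal through a plexin partner, whereas Sema3e can bind Plxnd1 directly. Neuropilins also bind vascular endothelial growth factor (VEGF) beside its receptor Kdr, so endothelium is a known site of their expression, and Sema3a from the jaw and tooth region is known to pattern the sensory innervation of teeth.

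Both libraries came from K14Cre;R26mT/mG mouse embryos, in which Cre driven from the Keratin 14 promoter switches a membrane reporter from red to green in epithelial cells. At E12.0 the green cells of mandibles from 6 pooled embryos were sorted, and at E9.5 the mandibular arches of 8 pooled littermates were dissociated with no sort, so that library holds epithelium, mesenchyme, endothelium and blood. There was 1 droplet library per stage and no replicate, and cells of 1 library are not replicates. The intervals below therefore cover counting error alone at the 95% level, no p-value was computed, and stage, sort, library and gene annotation cannot be told apart.

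Cells with 200 to 5500 genes and at most 10% mitochondrial UMIs were kept. These were 11355 cells with 77936364 UMIs and a median of 6349 UMIs at E12.0, and 12744 cells with 166191431 UMIs and a median of 13460.5 UMIs at E9.5. At E12.0 each gate held the cells that reached the minimum, 4 UMIs for Cxcl14 and 1 UMI for Irx1, Shh, Dmrt2 or Pax9, for 1 of these 5 zone genes alone, so cells with 1 to 3 Cxcl14 UMIs stood in other groups. The Cxcl14 gate stood for the anterior, aboral epithelium and held 4360 cells. The Irx1 gate stood for dental epithelium with 1233 cells, the Dmrt2 gate for posterior epithelium with 473 cells, and the Pax9 gate for a second posterior group with 524 cells. The Shh gate held 212 cells and took in the tooth initiation knots. Markers outside the gates were set against these names: the summed level of 7 anterior markers was 1826 counts per 1000000 UMIs (CPM) in the Cxcl14 gate and at most 430 CPM in the other 4 gates, 8 posterior markers summed to 846 CPM in the Dmrt2 gate and 555 CPM in the Pax9 gate against at most 243 CPM in the rest, and 5 knot markers summed to 255 CPM in the Shh gate against at most 33.3 CPM elsewhere. A list of 7 dental markers summed to 1050 CPM in the Irx1 gate and 1081 CPM in the Shh gate, against at most 407 CPM in the other 3, so it did not tell the Irx1 gate from the Shh gate. Several of the dental, knot and posterior markers were found by the authors in this same E12.0 library. The sums are therefore no independent check of the names. A further 3909 cells had no zone gene at its minimum and 644 had several, of which 32.5% were called doublets by Scrublet.

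At E9.5 the epithelium gate (Epcam and Cdh1) held 3051 cells, the mesenchyme gate (Twist1 and Prrx1) 5565, the endothelium gate (Cdh5 and Pecam1) 224 and the Sox10 gate 580. The 6 endothelial markers outside the gate summed to 2966 CPM in the endothelium gate and at most 70.3 CPM in the other gates. The list of 5 other crest genes summed to 195 CPM in the Sox10-gated cells, 97.6 CPM in mesenchyme, 33.3 CPM in epithelium and 265 CPM in endothelium, where Ets1 alone was 261 CPM. The Sox10-gated cells had Ets1 at 119.8 CPM and Foxd3 at 2.92 CPM, beside the mesenchymal gene Prrx2 at 238 CPM, and they are called Sox10-gated cells below and not neural crest. The Sox10 gate set no limit on Twist1 and Prrx1, so its cells could also reach the minimum of the mesenchyme gate.

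On the GRCm38 build with GENCODE vM21 genes, 4 of the 5 ligand genes lie on the plus strand of chromosome 5 within 5.35 Mb: Sema3d at chr5:12383385-12588948, Sema3a at chr5:13125414-13602565, Sema3e at chr5:14025276-14256689 and Sema3c at chr5:17574281-17730268. Sema3f lies apart, on the minus strand at chr9:107681500-107710475. Nrp1 lies at chr8:128358604-128503363 and Nrp2 at chr1:62703285-62818695, both on the plus strand. No other annotated gene covered the 3′ end of any of the 7, which is the end that was counted.

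Upstream sequence is shown for Sema3a and Sema3d, the neighbouring ligands with opposite zones at E12.0, and for Nrp2, the receptor that followed the Shh gate. RefSeq promoter windows (GRCm38.p6) were matched for 6 of the 7 genes. Each sequence is given 5′ to 3′ on the plus strand, stopping before the RefSeq start or the first annotated exon base. Capitals mark matches to motifs searched on both strands: GCCNNNGGC for AP-2, CTTTGAT for TCF/LEF, TAATCC for Pitx factors, TAATTA for homeodomain factors and ACANNTGT for Iroquois factors. The windows are chr5:13396534-13396783 for Sema3a, which lies inside the longer GENCODE gene, chr5:12382916-12383165 for Sema3d and chr1:62703067-62703284 for Nrp2.
Sema3a: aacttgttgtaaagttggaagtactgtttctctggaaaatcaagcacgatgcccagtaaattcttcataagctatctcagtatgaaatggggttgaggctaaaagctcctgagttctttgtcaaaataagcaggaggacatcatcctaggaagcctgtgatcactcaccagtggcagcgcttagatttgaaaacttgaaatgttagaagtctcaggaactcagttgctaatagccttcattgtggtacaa
Sema3d: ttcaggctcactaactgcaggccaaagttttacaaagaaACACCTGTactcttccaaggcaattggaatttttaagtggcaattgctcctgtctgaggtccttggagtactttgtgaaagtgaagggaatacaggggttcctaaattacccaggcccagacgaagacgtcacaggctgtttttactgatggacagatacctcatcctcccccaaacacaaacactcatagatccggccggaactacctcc
Nrp2: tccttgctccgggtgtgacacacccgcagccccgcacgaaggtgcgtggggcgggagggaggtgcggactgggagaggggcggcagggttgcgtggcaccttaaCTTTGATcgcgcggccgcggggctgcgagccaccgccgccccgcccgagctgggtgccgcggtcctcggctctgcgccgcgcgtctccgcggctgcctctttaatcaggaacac

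The Sema3d window held 1 Iroquois match, 211 bases before the start, and the Nrp2 window held 1 TCF/LEF match, 146 bases before it. Of 32851 promoter windows of 250 bases, 6.31% held the Iroquois letters and 3.21% the TCF/LEF letters. The Sema3a window held none of the motifs, whereas an AP-2 match, present in 13.7% of windows, stood in the Sema3c window. None of the matched windows held the Pitx letters, which were present in 6.25% of all windows. All 250 bases of the Sema3c window lay in annotated exon. GC content of the 250-base windows was 40.8% for Sema3a and 46.8% for Sema3d but 72.4% for Nrp2 and 78.4% for Sema3c, against a median of 52.4%. These matches describe letters and not binding.

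Sema3a, the chemorepellent ligand of sensory and motor axons, was a gene of the anterior zone at E12.0. Its level was 310 CPM (interval 304 to 316) in the Cxcl14 gate, 107 in the Irx1 gate, 103 in the Shh gate, 84.6 in the Dmrt2 gate and 82.4 CPM in the Pax9 gate. The Cxcl14 gate stood alone, and every neighbouring pair among the other 4 gates had overlapping intervals. The Cxcl14 to Irx1 ratio was 2.90 (interval 2.71 to 3.09), and the Cxcl14 to Dmrt2 ratio was 3.67 (3.26 to 4.14). With each cell thinned to 4000 UMIs, 66.8% of Cxcl14-gated cells had a Sema3a UMI against 22.9% to 30.7% in the other gates, and unthinned the shares were 79.8% against 36.8% to 46.9%. The Cxcl14 gate held 63.5% of all Sema3a UMIs of the library, beside 39.1% of the UMIs of all genes.

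Sema3d, a ligand that binds Nrp1 and acts on endothelial and neural crest cells, was highest at the other end of the epithelium. Its level was 421 CPM (interval 399 to 443) in the Dmrt2 gate, 270 in the Pax9 gate, 226 in the Irx1 gate, 134 in the Shh gate and 130 CPM in the Cxcl14 gate. The 3 upper gates were separated from each other and from the lower 2 by their intervals, and the Shh and Cxcl14 gates overlapped. Sema3d in the Dmrt2 gate was 1.86 times its level in the Irx1 gate (1.74 to 1.99) and 3.25 times its level in the Cxcl14 gate. After thinning, 76.9% of Dmrt2-gated cells had a Sema3d UMI against 35.5% of Cxcl14-gated cells.

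**Figure D1:**
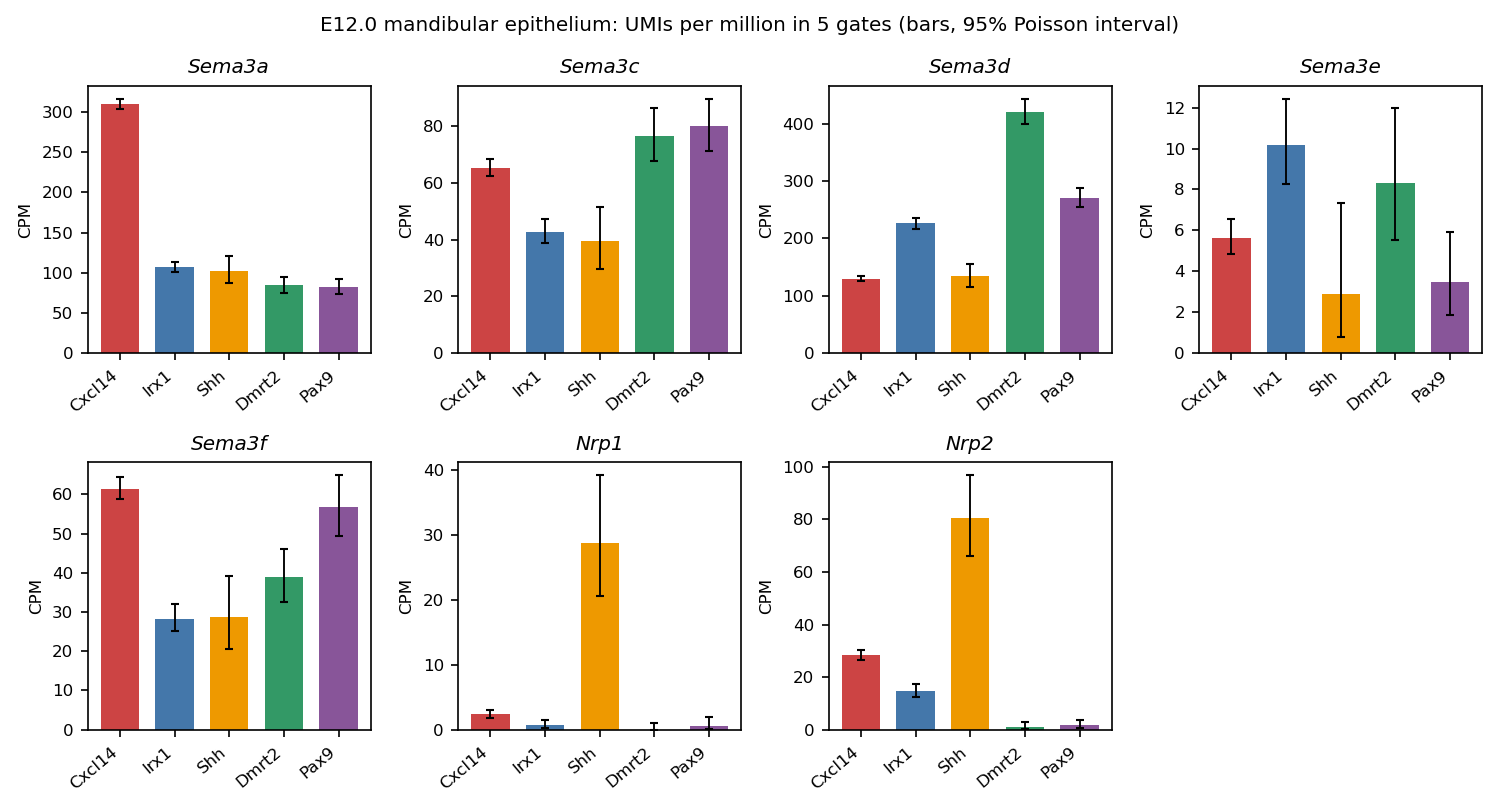
Level of each gene in the 5 E12.0 gates, in UMIs per 1000000 UMIs of the gate (CPM) (bars) with the Poisson interval of the count, each panel on its own axis from 0. Sema3a is highest in the Cxcl14 gate (310 CPM), Sema3d in the Dmrt2 gate (421 CPM), and both neuropilins in the Shh gate (Nrp1 28.7, Nrp2 80.5 CPM).

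The opposite course of these ligands was graded when cells were ordered by their Cxcl14 content, whatever other gate gene they held. Sema3a was 94.1 CPM in the 4755 cells with no Cxcl14 UMI, then 117, 171, 219, 305 and 335 CPM in the 5 classes of rising Cxcl14. Sema3d was 270 CPM without Cxcl14, then 221, 179 and 137 CPM, and stayed at 130 to 136 CPM in the 2 highest classes. Nrp2 rose over the same 6 classes from 8.84 to 34.3 CPM and Sema3f was lowest at 39.7 CPM in the second class and highest at 65.4 CPM in the last, whereas Sema3c differed little, at 52.4 to 65.5 CPM. The class of 5 to 10 per 10000 held 17.8% called doublets against 2.29% to 9.89% in the other classes, and the share of doublets in that value was not tested.

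**Figure D2:**
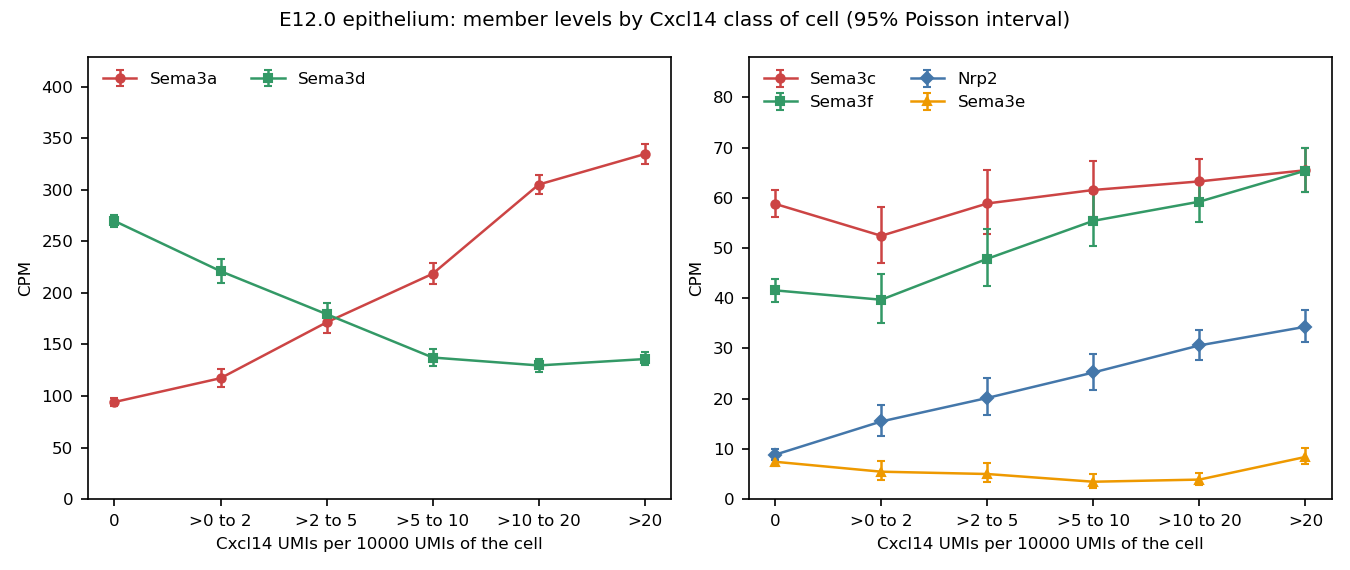
CPM of 6 of the genes in E12.0 cells sorted into 6 classes by Cxcl14 UMIs per 10000 UMIs of the cell, with Poisson intervals, on linear axes from 0. Sema3a climbs from 94.1 to 335 CPM while Sema3d falls from 270 to 136 CPM, and Nrp2 climbs from 8.84 to 34.3 CPM.

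UMIs of both ligands were often found under the same cell barcode, and the background share of such UMIs was not measured in the sorted E12.0 library. At 4000 UMIs a cell, 2132 of 10439 cells had UMIs of both Sema3a and Sema3d, against 2290 from the product of their shares, a ratio of 0.931 (0.896 to 0.967). Inside the Cxcl14 gate the ratio was 1.03 (0.977 to 1.09), an interval that includes 1. These intervals are those of the joint share, with the product taken as fixed although it comes from the same cells. An interval that includes 1 therefore does not settle whether the ratio departs from 1. The highest count in 1 cell was 14 UMIs for Sema3a and 13 for Sema3d, and 6536 and 6927 of the 11355 cells had at least 1 UMI.

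Sema3c, a ligand known from cardiac outflow tract and neural crest guidance, was spread more evenly. It was 80.0 CPM in the Pax9 gate, 76.5 in the Dmrt2 gate, 65.3 in the Cxcl14 gate, 42.8 in the Irx1 gate and 39.5 CPM in the Shh gate. The first 3 overlapped in turn and the last 2 overlapped each other, with a gap between Cxcl14 and Irx1. The Pax9 interval (71.2 to 89.6) nevertheless lay above that of the Cxcl14 gate (62.5 to 68.2). Against the Irx1 gate the ratio was 1.79 (1.53 to 2.10) in the Dmrt2 gate and 1.87 (1.61 to 2.18) in the Pax9 gate.

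Sema3f, which signals mainly through Nrp2, was 61.4 CPM in the Cxcl14 gate, 56.7 in the Pax9 gate, 38.9 in the Dmrt2 gate, 28.7 in the Shh gate and 28.3 CPM in the Irx1 gate. It was thus lowest in the Shh and Irx1 gates, with the Cxcl14 and Pax9 intervals overlapping at the top and the other 3 overlapping in turn. Its ratio to the Irx1 gate was 2.17 (1.91 to 2.48) in the Cxcl14 gate and 2.00 (1.66 to 2.41) in the Pax9 gate. The Dmrt2 interval (32.5 to 46.1) also lay above the Irx1 interval (25.0 to 31.9).

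Sema3e, the ligand of Plxnd1, was rare at E12.0. It rested on 487 UMIs in 430 cells, with 10.2 CPM in the Irx1 gate, 8.31 in the Dmrt2 gate, 5.64 in the Cxcl14 gate, 3.48 in the Pax9 gate and 2.87 CPM in the Shh gate, and each neighbouring pair in that order overlapped. The Shh value came from 4 UMIs. The Irx1 interval nevertheless lay above those of the Cxcl14, Pax9 and Shh gates, and the Pax9 to Irx1 ratio was 0.341 (0.175 to 0.612).

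Nrp2, a receptor for Sema3c and Sema3f, had a level of 80.5 CPM (66.3 to 96.8) in the Shh gate, 28.5 in the Cxcl14 gate and 14.6 CPM in the Irx1 gate, with no overlap among these. In the Pax9 and Dmrt2 gates it was near 0, at 1.87 and 1.19 CPM from 7 and 4 UMIs. Nrp2 thus had its lowest levels in the 2 gates where Sema3d and Sema3c had their highest. Its Shh to Irx1 ratio was 5.497 (4.25 to 7.11), and its Dmrt2 to Irx1 ratio was 0.0811 (0.0218 to 0.212).

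Nrp1, the receptor for Sema3a, had 161 UMIs in the whole E12.0 library and fell below the level filter of 5 CPM, so it was not tested there. It was 28.7 CPM (20.5 to 39.1) in the Shh gate, 2.36 in the Cxcl14 gate, 0.743 in the Irx1 gate and 0.535 CPM in the Pax9 gate. None of the 473 Dmrt2-gated cells had a UMI, with an upper interval bound of 1.09 CPM. The Shh gate, with 1.87% of the kept cells, held 24.8% of all Nrp1 UMIs, in 17 cells, while the Cxcl14 gate with 38.4% of the cells held 44.7%. Outside the Shh gate no more than 1.44% of the cells of a gate had one. Kdr was at 0 CPM in all 5 gates, and 6 endothelial markers summed to 5.88 to 19.4 CPM, highest in the Shh gate, where Emcn, Tie1 and Cldn5 were at 0. Neuronal genes (Tubb3, Stmn2 and Elavl4) summed to 46.0 CPM in the Shh gate and 3.21 to 7.96 CPM in the other gates, of which 43.8 CPM in the Shh gate was Tubb3 while Stmn2 was at 0, and their part in the neuropilin levels was not tested.

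The Shh gate mixed cell kinds, and a split chosen after its values were seen gave lower levels of both receptors in one of them. The 37 cells with a UMI of the tongue genes Foxa1 or Foxa2 had no Nrp1 UMI, with an upper interval bound of 13.8 CPM, and Nrp2 at 14.9 CPM (4.06 to 38.2). The 175 cells without either had Nrp1 at 35.6 CPM (25.4 to 48.5) and Nrp2 at 96.1 CPM (78.9 to 116). In these 175 cells the knot genes Dkk4, Gad1 and Sp5 were at 66.8, 61.4 and 98.8 CPM, against 11.2, 0 and 18.6 CPM in the 37. In cells with both Cxcl14 and Shh, Nrp1 was 22.2 CPM and Nrp2 124 CPM, though 26.1% of those 69 cells were called doublets. In the 137 cells with both Irx1 and Shh, of which 4.38% were called doublets, Nrp2 was again 64.5 CPM but Nrp1 was 3.74 CPM. These 137 cells also held the knot genes, with Dkk4, Gad1 and Sp5 at 19.6, 47.7 and 93.4 CPM.

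Isl1 and Fgf8 are known as markers of the medial, incisor side and the lateral, molar side of the oral epithelium. Nrp2 was 25.9 CPM (24.1 to 27.8) in the 3881 cells with Isl1 and no Fgf8 and 4.89 CPM (3.35 to 6.91) in the 910 cells with Fgf8 and no Isl1, without overlap. Sema3d had the other direction, at 197 and 251 CPM. Inside the Cxcl14 gate alone the Nrp2 values were 36.8 CPM and 7.99 CPM, the second from 63 cells and 5 UMIs, and 30.2% of those 63 cells were called doublets. Sema3a there was 249 CPM and 257 CPM, with overlapping intervals.

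Calls among the 7 genes at E12.0 are given beside those of all genes tested. A call was a ratio of at least 1.5-fold after 5 CPM was added to each level. The 7 genes were chosen with earlier results of these data known. Here and in the comparisons below, their calls are therefore a description and no test against all genes. Between the Cxcl14 and Irx1 gates, 3 of the 6 tested genes were called higher and 1 lower, where 8.91% of all 10048 tested genes were called, 4.73% higher and 4.18% lower. Sema3a, Sema3f and Nrp2 were the higher ones, at log2 ratios of 1.49, 1.00 and 0.77, and Sema3d was lower at -0.78. Between the Cxcl14 and Dmrt2 gates the counts were 3 higher and 1 lower, for the same 4 genes in the same directions, with 10.0% of all genes called, 4.92% higher and 5.12% lower. Between the Dmrt2 and Irx1 gates Sema3c and Sema3d were called higher and Nrp2 lower, with 6.20% of all genes called, 3.23% higher and 2.97% lower. Between the Pax9 and Irx1 gates Sema3c and Sema3f were called higher and Sema3e and Nrp2 lower, with 9.60% called, 5.36% higher and 4.24% lower. Between the Shh and Irx1 gates Nrp2 was called higher and Sema3d and Sema3e lower, with 9.41% called, 4.88% higher and 4.54% lower. The Sema3e call rested on 4 UMIs in the Shh gate. Of these 5 comparisons 4 share the Irx1 gate and are not independent.

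In the unsorted arch at E9.5 the 5 ligands were all highest in epithelium. Sema3a was 84.0 CPM (81.2 to 86.8) in the epithelium gate, 12.4 in the mesenchyme gate, 7.39 in the Sox10-gated cells and 5.98 CPM in the endothelium gate. Sema3d was 36.2 CPM in epithelium and at most 1.28 CPM elsewhere, and Sema3e was 17.4 CPM in epithelium and at most 0.609 CPM elsewhere. Sema3c was 16.5 CPM in epithelium and 2.62 CPM in mesenchyme. It had no UMI in 224 endothelial cells, with an upper interval bound of 1.10 CPM. Sema3f was 17.2 CPM in epithelium, 5.38 in endothelium and 1.87 CPM in mesenchyme. For each ligand the interval in epithelium lay above those of the other 3 gates.

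Between mesenchyme and epithelium 5 of the 7 genes were called lower and 0 higher, where 18.1% of 9311 tested genes were called, 5.43% higher and 12.7% lower. The mesenchyme to epithelium ratio was 0.0339 (0.0276 to 0.0414) for Sema3d, 0.0350 (0.0259 to 0.0465) for Sema3e, 0.109 for Sema3f, 0.148 (0.138 to 0.158) for Sema3a and 0.159 (0.136 to 0.185) for Sema3c. A set of 6 epithelial markers not used in the gate (Cldn6, Cldn7, Krt8, Krt18, Esrp1 and Grhl2) had 2.27% to 7.34% of their epithelial level in the mesenchyme gate. The mesenchymal values of Sema3d and Sema3e, at 3.39% and 3.50%, fell inside that range, whereas those of Sema3a, Sema3c and Sema3f, at 14.8%, 15.9% and 10.9%, lay above it. In the endothelium gate the epithelial markers had 2.31% to 3.21% of their epithelial level and Sema3f had 31.3%. The part of RNA from other cells in these ligand levels was not tested.

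**Figure D3:**
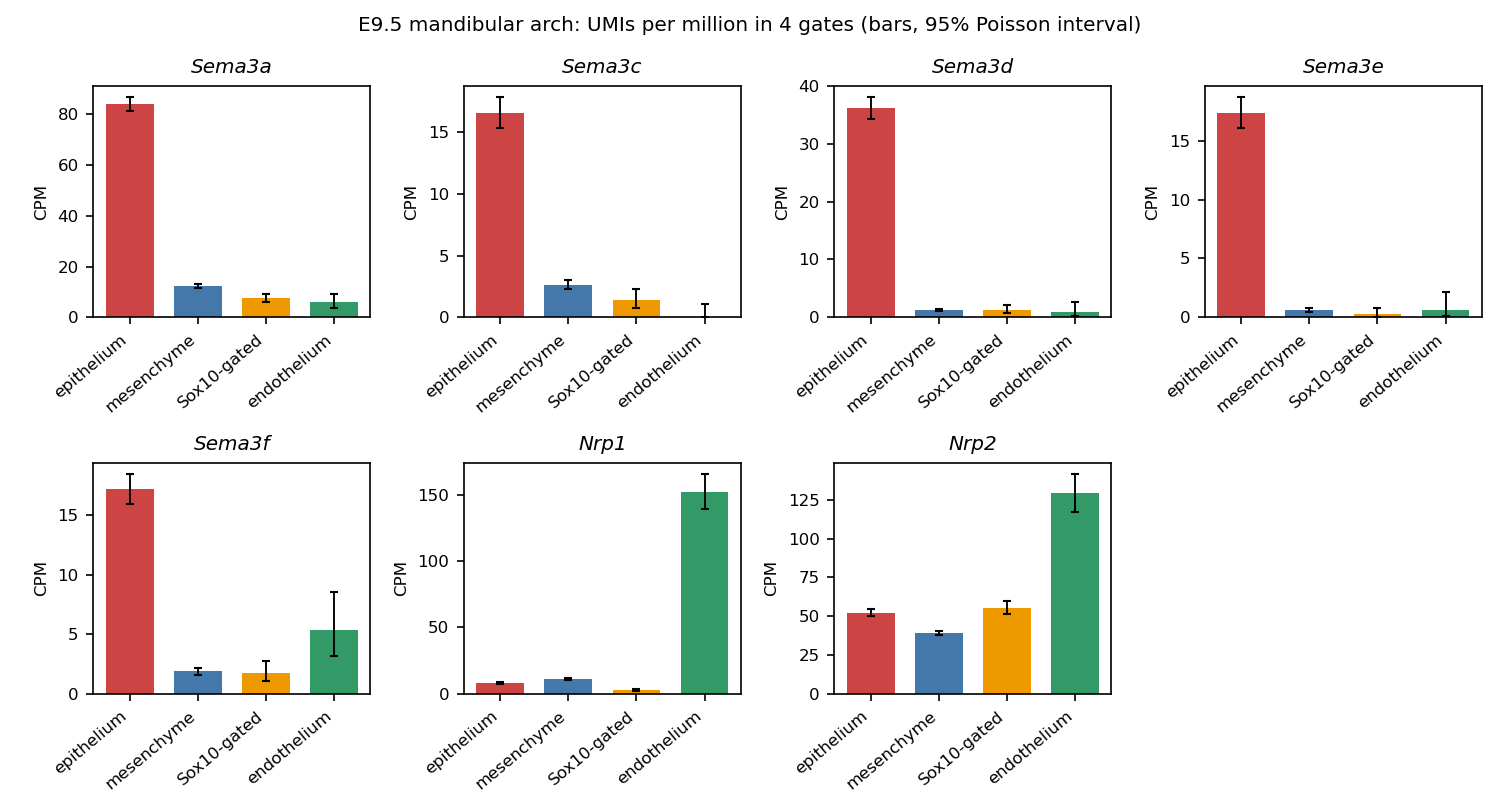
Level of each gene in the 4 E9.5 gates, in UMIs per 1000000 UMIs of the gate (CPM) (bars) with the Poisson interval of the count, each panel on its own axis from 0. All 5 ligands are highest in epithelium, from 16.5 CPM for Sema3c to 84.0 CPM for Sema3a, and among these gates Nrp1 and Nrp2 are highest in endothelium at 152 and 129 CPM.

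The ligands also varied inside the E9.5 gates. In the 477 epithelial cells with a UMI of the endodermal genes Foxa2 or Pax1, Sema3a was 33.4 CPM (29.1 to 38.0) and Sema3e 8.78 CPM (6.69 to 11.3), below their 84.0 and 17.4 CPM over the whole epithelium gate, which includes these cells. Sema3d was 27.8 CPM (24.0 to 32.1) there, and Sema3f, at 16.8 CPM (13.9 to 20.2), overlapped its level in the whole gate. Within the mesenchyme gate, cells with at least 2 UMIs of Hand2, a distal arch marker, had Sema3a at 24.0 CPM (20.9 to 27.5) and Nrp1 at 23.5 CPM (20.4 to 26.9), against 10.5 and 9.56 CPM in cells without Hand2.

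Among the 4 gates both receptors were highest in endothelium. Nrp1 was 152 CPM (139 to 166) in the endothelium gate, 11.4 in mesenchyme, 7.96 in epithelium and 2.74 CPM in the Sox10-gated cells, with no overlap between neighbours. Nrp2 was 129 CPM (117 to 142) in endothelium, 55.4 in the Sox10-gated cells, 52.3 in epithelium and 39.2 CPM in mesenchyme, the middle pair overlapping. After thinning, 38.9% of endothelial cells had an Nrp1 UMI against 0.694% to 3.94% in the other gates. The Nrp2 share was 35.3% in endothelium and 12.8% to 22.4% in the other gates. Endothelial marker genes had a median of 1.27% of their endothelial level in the mesenchyme gate and 5.46% at most, below the 7.46% of Nrp1 and the 30.3% of Nrp2. These markers gauge RNA from endothelium only. The endothelium gate held 432 Nrp2 UMIs, whereas the E9.5 cells in no gate held 3292. The part of RNA from other cells in the neuropilin levels was not tested.

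Between endothelium and mesenchyme 3 of the 7 genes were called higher and 2 lower, where 27.2% of all tested genes were called. The ratio was 13.4 (12.0 to 14.9) for Nrp1, 3.30 (2.98 to 3.65) for Nrp2 and 2.87 (1.66 to 4.69) for Sema3f, the last from 18 endothelial UMIs. Sema3a, at 0.482 (0.293 to 0.748), and Sema3c were called lower. Sema3c had no endothelial UMI, with an upper interval bound of 1.10 CPM, against 2.62 CPM in mesenchyme. The called shares of all genes were 13.9% higher and 13.3% lower. Between the Sox10-gated cells and mesenchyme 1 of the 7 was called, Nrp1, which was lower with a ratio of 0.241 (0.162 to 0.346), where 1.57% of all genes were called, 0.387% higher and 1.18% lower. The Nrp2 ratio in the same comparison was 1.41 (1.295 to 1.54), short of a call. With gate thresholds doubled 89 Sox10-gated cells were left, the Nrp1 log2 ratio moved from -1.08 to -0.50, where it was no longer called, and that of Nrp2 from 0.45 to 1.14.

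Among the plexins, which transmit the signal, only Plxna2 and Plxnc1 were called between gates at E12.0. Plxna2 was 237 CPM in the E12.0 Cxcl14 gate, 72.8 in the Pax9 gate and 30.2 to 42.1 CPM in the other 3 gates. It shared its highest gate with Sema3a. Plxnc1 followed the same gate at 31.8 CPM against 10.1 to 18.1 CPM elsewhere, and Plxna1 was highest in the Shh gate at 52.5 CPM. Plxna1, Plxna3, Plxnb1 and Plxnb2 were called in none of the 5 E12.0 comparisons, Plxna4 was at most 6.17 CPM there, and Plxnb3 was at most 0.299 CPM in every gate of either stage. Plxnd1 and Kdr were nearly absent from E12.0 epithelium, Plxnd1 at no more than 1.44 CPM and Kdr at 0 CPM in all 5 gates. At E9.5 Plxnd1 was 263 CPM and Kdr 438 CPM in endothelium and at most 5.43 and 8.64 CPM in the other gates, and Plxna4 was 44.1 CPM in mesenchyme but 3.25 CPM in epithelium. The ligand of Plxnd1, Sema3e, was thus an epithelial transcript in an arch where that receptor was an endothelial one.

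**Figure D4:**
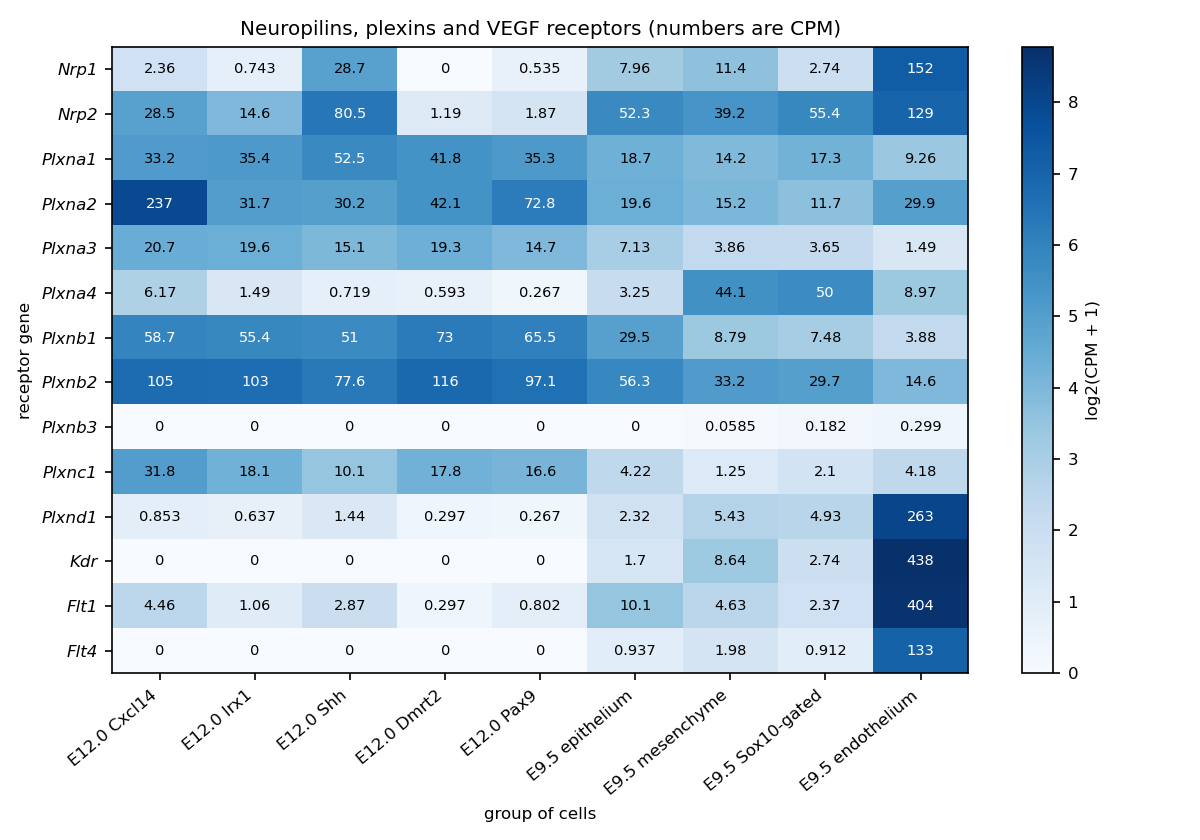
CPM of the neuropilins, the 9 plexins and 3 VEGF receptors in the 5 E12.0 gates and the 4 E9.5 gates, coloured on a log2(CPM + 1) scale with the CPM printed in each cell. Nrp1, Nrp2, Plxnd1, Kdr, Flt1 and Flt4 are highest in E9.5 endothelium among these 9 gates, and Plxna2 in the E12.0 Cxcl14 gate at 237 CPM.

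A list of 39 other pathway genes (plexins, the other class 3 ligands, VEGF genes, co-receptors, cytoplasmic partners and processing proteases) was called in part at E12.0. Of 22 tested between the Cxcl14 and Irx1 gates 2 were higher and 4 lower, with a median log2 ratio of 0.04 against -0.01 over all genes. Of all tested genes 8.91% were called there, 4.73% higher and 4.18% lower. The largest were Plxna2 at 2.72 and the adhesion co-receptor Chl1 at -1.58, from 12.4 and 46.997 CPM. Between the Dmrt2 and Irx1 gates 0 of 22 were called, where 6.20% of all genes were called. Between the Pax9 and Irx1 gates 2 of 22 were higher and 4 lower, where 9.60% of all genes were called. Between the Cxcl14 and Dmrt2 gates 3 of 22 were higher and 6 lower, where 10.0% of all genes were called. Between the Shh and Irx1 gates 3 of 22 were higher and 1 lower, where 9.41% of all genes were called. Furin, the protease that cleaves class 3 semaphorins, was among the higher ones at 47.4 against 24.5 CPM. In E9.5 endothelium 10 of 24 were higher than in mesenchyme and 6 lower, where 13.9% of all genes were higher and 13.3% lower. The VEGF receptor Flt1 led at 404 against 4.63 CPM.

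Ligand UMIs were common and neuropilin UMIs rare in the posterior zone. At 4000 UMIs, 88.8% of Dmrt2-gated cells had a UMI of any of the 5 ligands and 0.673% had one of either neuropilin. In the Cxcl14 gate the shares were 86.8% and 11.0%, and 9.27% of cells had both. In the Shh gate 66.0% had a ligand and 22.3% a neuropilin, with 11.7% having both. In E9.5 endothelium the order was reversed, with 5.88% of cells having a ligand UMI and 63.3% a neuropilin UMI. Over all E12.0 cells Nrp2 and Sema3d shared fewer cells than the product of their shares, 228 against 331, a ratio of 0.689 (0.603 to 0.783), and Nrp1 and Nrp2 shared 14 against 4.33, a ratio of 3.23 (1.77 to 5.42). Within gates the Nrp1 and Nrp2 ratio was 1.61 (0.523 to 3.75) in the Cxcl14 gate and 1.66 (0.453 to 4.17) in the Shh gate, both intervals including 1. Inside the Cxcl14 gate the Nrp2 and Sema3d ratio was 0.858 (0.718 to 1.02), an interval that includes 1. All these intervals take the product of the shares as fixed, so they do not settle whether a ratio within a gate departs from 1.

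Between stages the 4 ligands other than Sema3e were higher in E12.0 epithelium than in the E9.5 epithelium gate, and Sema3e and both receptors were lower. All 7 were called, 4 higher and 3 lower, where 39.3% of 9957 genes were called, 26.8% higher and 12.5% lower. The E12.0 to E9.5 ratio was 5.49 (5.21 to 5.80) for Sema3d, 3.65 (3.37 to 3.97) for Sema3c, 2.93 (2.71 to 3.18) for Sema3f and 2.28 (2.19 to 2.36) for Sema3a. It was 0.360 (0.320 to 0.404) for Sema3e, 0.381 (0.356 to 0.407) for Nrp2 and 0.259 (0.213 to 0.314) for Nrp1. The median log2 ratio of all tested genes was 0.17, and the 7 ranged from -1.20 to 2.31. After thinning, 82.4% of E12.0 cells had a UMI of any ligand against 44.7% of E9.5 epithelial cells. Blood genes summed to 400 CPM in the E9.5 epithelium gate and to under 1 CPM in every E12.0 gate, and their part in the stage difference was not tested. The E9.5 gate also included the 477 cells with the endodermal genes Foxa2 or Pax1, whose part in the stage difference was not tested either.

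**Figure D5:**
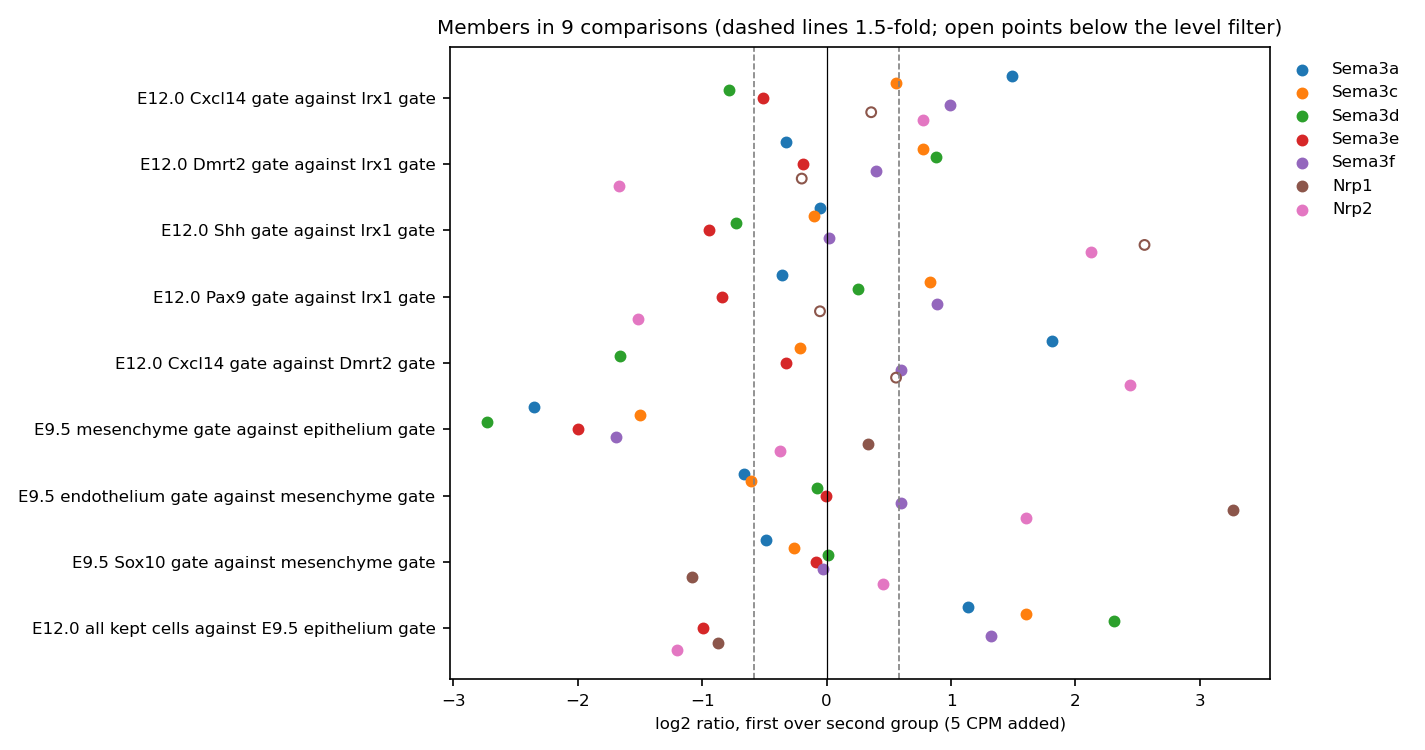
Log2 ratio of each gene in 9 comparisons, first group over second with 5 CPM added, with dashed lines at 1.5-fold. Sema3a and Sema3d stand on opposite sides in both Cxcl14 comparisons, the 5 ligands stand left of the line in mesenchyme against epithelium, and the points of Nrp1 at E12.0 are open because the gene fell below the level filter.

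Over the 9 gates of both libraries, the genes with the pattern nearest to each member by Pearson r of log2(CPM + 5), among 9934 genes, were Wls, Npnt and Khk for Sema3a (0.981 to 0.984), Zbtb8b, Tgfbr1 and Fjx1 for Sema3c (0.995 to 0.996) and Zfp664, Ntf5 and Tlk1 for Sema3d (0.993 to 0.994). For Sema3f they were Emid1, N4bp2 and Chmp2b (0.987 to 0.989), and for Sema3e Map3k5, Pard6b and Arhgap8 (0.946 to 0.976). For Nrp1 they were Tagln2, Gle1 and Lamp1 (0.945 to 0.953) and for Nrp2 Peli2, 2410015M20Rik and Pgs1 (0.940 to 0.989). Among the members Sema3c and Sema3d were the nearest pair (0.981), the 2 receptors had an r of 0.78, and each ligand had a negative r with each receptor, from -0.73 to -0.37. Differences between the 2 libraries enter every r. Sema3a and Sema3d thus had an r of 0.860, although they had opposite zones within E12.0. The gates of a library share depth and free RNA, 5 of the 9 are E12.0 epithelium, and these values describe the 9 gates and no more.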

How the data were processed

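Single-cell 3′ RNA libraries of E12.0 and E9.5 mandibles were deposited as UMI counts per gene and cell, 1 library per stage. The authors made these raw counts with Cell Ranger on mm10 (GRCm38): their processing notes name version 2.0.0, and the matrix headers name 3.1.0 for E12.0 and 6.1.2 for E9.5. The gene lists differ, so genes were joined by Ensembl ID (27514 shared). The libraries shared 44 cell barcodes.

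Cells with 200 to 5500 genes and at most 10% mitochondrial UMIs were kept. A gate at E12.0 needed 4 UMIs of Cxcl14 or 1 UMI of Irx1, Shh, Dmrt2 or Pax9. No other gate gene could be at its minimum. At E9.5 a gate needed 3 UMIs summed over the gene pair, or 2 of Sox10. The epithelium, mesenchyme and endothelium gates left out cells at the minimum of any other E9.5 gate. The Sox10 gate left out cells at the epithelium or endothelium minimum but not those at the mesenchyme minimum. Cells in a gate were 59.9% of kept cells at E12.0 and 73.9% at E9.5. Counts were summed per gate and given as CPM, with exact Poisson intervals (conditional binomial for ratios, Clopper-Pearson for shares) from scipy 1.17.1. Genes of at least 5 CPM over all kept cells were tested in ratios. Unless called unthinned, shares of cells with a UMI were taken after thinning each cell to 4000 UMIs. The thinning left out 916 E12.0 and 1715 E9.5 cells. Doublets were called with Scrublet in scanpy 1.11.5 and left in unless stated. UMIs count 3′ ends and were not scaled by length, so no gene was ranked against another by level. The text names the 7 genes, the plexins and Kdr, and up to 4 other pathway genes per comparison that were called at 20 CPM or more, largest first. The script was tested on simulated data. The genes, lists and rules were chosen with earlier results of these data known. Other call sizes, added CPM, filters, doublet removal, cell weights, embryo sex and gate thresholds were tried.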

Additional observations from a re-analysis of the deposited data

Results flagged for a closer look

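Transcripts of all 7 genes were also found in cells outside every gate, above the level that a count of 0 allows in each such group. That level was taken as 3 UMIs over the group, so any gene with more UMIs lay above it. The E12.0 cells entered the comparison of stages but none between gates, and the E9.5 cells entered none. In the 3909 E12.0 cells with no gate gene at its minimum, where 0 counts allow 0.129 CPM, Sema3d was 237 CPM, Sema3a 119 CPM, Sema3c 57.8 CPM, Sema3f 47.6 CPM, Nrp2 7.16 CPM, Sema3e 5.74 CPM and Nrp1 0.302 CPM. The Nrp1 value came from 7 UMIs, and its interval (0.121 to 0.622) included the limit of 0.129 CPM. Nrp2 in these cells lay between its level in the Irx1 gate (14.6 CPM) and in the Pax9 gate (1.87 CPM).

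In the 644 E12.0 cells with several gate genes, where 0 counts allow 0.473 CPM, Sema3d was 207 CPM, Sema3a 146 CPM, Sema3c 57.5 CPM, Sema3f 46.5 CPM, Nrp2 40.2 CPM, Sema3e 6.46 CPM and Nrp1 5.20 CPM. Of these cells 32.5% were called doublets, and the part of doublets in these levels was not tested.

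In the 3324 E9.5 cells in no gate, where 0 counts allow 0.116 CPM, Nrp2 was 127 CPM, Sema3a 25.8 CPM, Nrp1 25.5 CPM, Sema3f 8.99 CPM, Sema3d 8.06 CPM, Sema3c 7.83 CPM and Sema3e 5.36 CPM. Their median depth of 5405.5 UMIs was the lowest of the E9.5 groups, and their blood genes summed to 9148 CPM.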

How the results depend on the processing

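Of 129 counts of called genes under other settings, 117 stayed within 1.5 times the count in the report and 12 did not. Of 903 log2 ratios of single genes, 780 stayed within their counting error and 123 moved past it or had none because a gate held no UMI, and no called log2 ratio changed sign. The counts that follow are not set beside the share of all genes called under the same setting. With calls at 2-fold, 1 of the 6 tested genes was called between the Cxcl14 and Irx1 gates. The count was also 1 of 6 between Dmrt2 and Irx1, between Shh and Irx1, and between Pax9 and Irx1. It was 2 of 7 between endothelium and mesenchyme. The last comparison also gave 2 calls with 20 CPM added, 3 with no upper gene limit and 3 with doubled gate thresholds. Between Sox10-gated cells and mesenchyme the count was 3 with calls at 1.3-fold, 3 with 1 CPM added, 0 with 20 CPM added and 2 with doubled thresholds. Leaving out called doublets moved no count past 1.5 times.

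No paired analysis was possible because each stage had 1 library, with no replicate to leave out. Depth limits Nrp1 at E12.0, with 161 UMIs, Sema3e in the Shh gate and the ligands in 224 endothelial cells. Cells were pooled over embryos, so differences between embryos were not measured.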

Other observations

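In E9.5 cells outside every gate Nrp2 was 127 CPM (123 to 131), overlapping its level in the endothelium gate. A split chosen after its values were seen, by at least 2 UMIs of Tcf21, a transcription factor of branchial muscle precursors, gave 286 cells with Nrp2 at 265 CPM (interval 249 to 282) against 103 CPM (99.2 to 108) in the other 3038. The 286 cells also held Tbx1 at 309 CPM, with Epcam at 9.24 CPM and Myf5 at 8.71 CPM. Nrp1 in them was 15.8 CPM, below its 27.2 CPM in the rest, and Sema3d was 1.58 CPM against 9.17 CPM. The rest held most blood cells, with the embryonic globin gene Hba-x at 4952 CPM, and had Kdr at 47.1 CPM.

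In E9.5 epithelium 121 thinned cells had UMIs of both Sema3a and Sema3d against 93.8 from the product of their shares, a ratio of 1.29 (1.07 to 1.53). Among the 21 pairs of the 7 genes this was the only one in that gate whose interval excluded 1. The intervals take the product of the shares as fixed, so the other pairs were not shown to be at 1.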
